A study of Mus musculus with 12 samples.

Results

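A set of 10 genes for making and copying mitochondrial DNA and RNA was measured in whole mouse kidneys with and without FAN1. FAN1 is a nuclease that repairs DNA crosslinks, and separate mice received either repeated saline or repeated cisplatin. The 10 members were taken as the rows of the expression table whose gene numbers mapped to Ppargc1a, Ppargc1b, Esrra, Nrf1, Gabpa, Tfam, Tfb2m, Polrmt, Polg and Twnk, out of 27179 genes in all. All 10 were present and all 10 passed the filter on low values, which kept 14972 genes with a TPM (transcripts counted per length, on a scale where each library sums to 1000000) of at least 1 in at least 3 of 12 libraries. Each member reached 1 TPM in all 12 libraries, so none passed through a single group. The members were chosen by name and not by a cut on their values, though earlier results of these data were known when they were chosen.

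The 12 libraries came from 4 groups of 3 mice of mixed strain background, 8 to 12 weeks old. Wild-type and FAN1KO mice, whose labels read γGT1-Cre;Fan1-/-, received either saline or cisplatin, a platinum drug that crosslinks DNA and injures the proximal tubule, at 2 mg/kg into the peritoneum weekly for 5 weeks. The Ggt1 promoter drives Cre in the proximal tubule, so other kidney cells of a FAN1KO mouse keep Fan1, and the RNA was that of the whole kidney. In such bulk RNA, fewer cells of a type and less RNA per cell cannot be told apart.

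Mitochondria carry a small circular genome that is transcribed and copied by proteins encoded in the nucleus. The coactivators PGC-1α (Ppargc1a) and PGC-1β (Ppargc1b) bind transcription factors such as ERRα (Esrra), NRF1 and GABPα (Gabpa, also called NRF2α) and raise the output of nuclear genes for mitochondrial proteins. These include TFAM, which packages mitochondrial DNA and starts its transcription, TFB2M, which opens the promoter for the RNA polymerase POLRMT, the DNA polymerase POLG and the helicase Twinkle (Twnk). The proximal tubule and the thick ascending limb hold many mitochondria, and PGC-1α is known to be abundant in the kidney.

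Several of these proteins act on the promoters of others on the list, so the promoter windows of Tfam, the gene of the packaging factor, and of Tfb2m and Nrf1, the members with the lowest and the highest fold change between genotypes under cisplatin, are shown as RefSeq gives them for build GRCm38.p6. Each window runs from 250 bases before the annotated start to 50 after it, and 9 of 10 members had one. On both strands 4 short motifs were searched, CGCATGCG (the core of the NRF1 site), CCGGAAG (the ETS site that GABPα reads), AAGGTCA (the core of the ERRα site) and GGGCGG (the SP1 site), and capitals mark each match on either strand.

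Tfam, chromosome 10, minus strand, chr10:71237995-71238294: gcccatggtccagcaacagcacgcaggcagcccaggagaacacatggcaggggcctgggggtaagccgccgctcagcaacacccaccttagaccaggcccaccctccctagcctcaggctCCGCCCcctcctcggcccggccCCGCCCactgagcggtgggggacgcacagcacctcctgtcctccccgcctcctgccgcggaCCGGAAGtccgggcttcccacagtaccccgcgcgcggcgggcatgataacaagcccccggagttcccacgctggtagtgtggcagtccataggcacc

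Tfb2m, chromosome 1, minus strand, chr1:179546227-179546526: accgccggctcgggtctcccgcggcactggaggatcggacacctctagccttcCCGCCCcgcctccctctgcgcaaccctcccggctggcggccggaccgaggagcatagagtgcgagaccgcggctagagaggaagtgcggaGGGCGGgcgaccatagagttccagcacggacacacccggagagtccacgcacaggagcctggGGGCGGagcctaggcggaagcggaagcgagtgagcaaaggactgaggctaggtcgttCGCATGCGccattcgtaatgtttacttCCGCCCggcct

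Nrf1, chromosome 6, plus strand, chr6:30047738-30048037: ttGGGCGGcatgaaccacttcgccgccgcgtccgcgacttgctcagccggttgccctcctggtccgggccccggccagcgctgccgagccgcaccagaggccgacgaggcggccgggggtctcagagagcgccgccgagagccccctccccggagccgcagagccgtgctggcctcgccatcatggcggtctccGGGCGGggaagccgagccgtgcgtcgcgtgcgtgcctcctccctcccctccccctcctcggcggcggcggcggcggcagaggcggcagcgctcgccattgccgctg

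The Tfam window held 1 ETS match that began 47 bases before the start and 2 SP1 matches on the reverse strand. The Tfb2m window held the NRF1 core, 13 bases after the start, and 4 SP1 matches. The Nrf1 window held 2 SP1 matches and none of the other 3 motifs, and a second annotated Nrf1 window held none of the 4. Of the other members, Gabpa had both the NRF1 core and an ETS match, and Polrmt and Polg each had an ETS match. Of the 2 Twnk windows 1 had the ERR core and the other 2 ETS matches, and SP1 matches also lay in the Esrra, Polg and second Twnk windows. Among 32851 promoter windows of the same length, 1.87% held the NRF1 core, 8.86% the ETS site, 4.72% the ERR core and 35.7% the SP1 site. The matches describe letters only, and no binding was measured in these kidneys.

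Before the comparisons, a few facts about the libraries bear on how the values are read. From the steps in the TPM values the reads in genes tested came to between 37134862 and 82856492 per library, and the members rested on between 462 reads (the lowest library for Ppargc1b) and 18403 reads (the highest for Esrra). Fan1 RNA lay between 1.17 and 2.28 TPM in FAN1KO saline kidneys and between 1.98 and 3.80 TPM in wild-type saline kidneys. Under cisplatin it lay between 1.55 and 3.51 TPM in FAN1KO and between 2.33 and 3.57 TPM in wild-type kidneys. The genotypes overlapped in both treatments, so whole-kidney Fan1 RNA did not check the labels. In each group 1 library held RNA of 4 Y-linked genes, 4 of 12 libraries in all. The 12 proximal tubule markers, genes of the reabsorbing cells in which Cre acts, summed to between 2373 and 4691 TPM in FAN1KO cisplatin kidneys against 5873 to 8302 TPM in wild-type cisplatin kidneys. Of these 12, 8 were lower and 0 higher in FAN1KO, where a gene was called different when its limma p-value, adjusted over all genes tested by the Benjamini-Hochberg method, fell under 0.05. All 5 tubule injury markers were called higher there, and summed to between 1307 and 1597 TPM against 89.6 to 298 TPM. Of 4 red cell markers 3 were lower and of 6 collecting duct markers 2 were higher, and immune cell markers gave 0 lower and 1 higher of 8. Across all genes tested 4.37% were called lower and 19.6% higher, so the collecting duct and immune cell counts are not read as shifts. Of 7 markers of the thick ascending limb and distal tubule 2 were lower, Calb1 and Pvalb, the latter at -4.63 on the log2 scale (limma adjusted p = 0.00119), and their median was -0.19. Among 5 endothelial, 5 podocyte and 6 fibroblast markers none was called, with median log2 fold changes of -1.06, -0.01 and 0.09. The endothelial median was thus as low as that of the proximal tubule markers (-1.03), and all 5 endothelial markers lay below the median of all genes. What part the differences in cell markers had in the differences below was not tested.

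By level per gene length, Esrra was the most abundant of the 10, at 116 to 185 TPM over the 12 libraries, and Ppargc1b and Nrf1 the least, at 4.07 to 10.1 TPM and 4.56 to 10.2 TPM. The other 7 lay between 10.8 and 27.6 TPM.

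**Figure D1:**
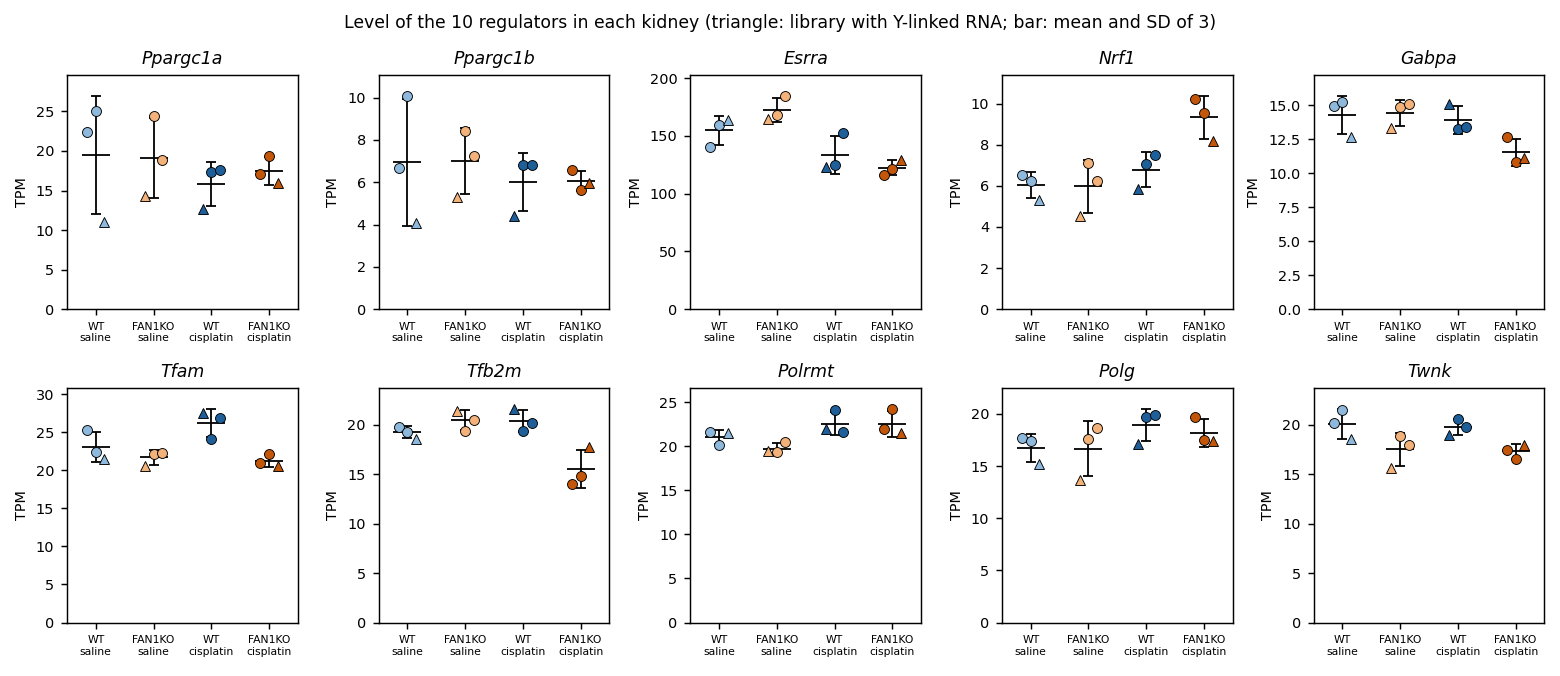
TPM (vertical axes, from 0) of each of the 10 genes in each kidney, by group along the horizontal axis. Points are libraries, triangles those with Y-linked RNA, and the bar with whiskers is the mean and SD of 3. Tfb2m and Gabpa sat lower and Nrf1 higher in the FAN1KO cisplatin kidneys than in the other 3 groups, with no overlap.

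The central comparison asked how FAN1KO kidneys differed from wild-type kidneys when both had received cisplatin. Of the 10 genes 1 was called lower, Tfb2m, and 0 were called higher (3 had an unadjusted p under 0.05). Across all genes tested, 4.37% were called lower and 19.6% higher, so 1 of 10 members lower is near the background and none was among the many genes called higher. The median log2 fold change was -0.09 over the 10 members and 0.24 over all genes, and 9 of 10 members lay below that median of all genes. The 3 values of the 2 genotypes did not overlap for 5 members (Nrf1 higher, and Gabpa, Tfam, Tfb2m and Twnk lower), against 44.3% of all genes.

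Tfb2m, the factor that melts the mitochondrial promoter, stood at 14.04, 14.8 and 17.7 TPM in the FAN1KO cisplatin kidneys and at 21.6, 19.4 and 20.2 TPM in the wild-type cisplatin kidneys. All FAN1KO values lay below all wild-type values, and also below those of both saline groups (18.6 to 19.8 TPM in wild-type and 19.4 to 21.4 TPM in FAN1KO). The difference was -0.38 on the log2 scale of TPM + 1 (SE 0.11, limma adjusted p = 0.0298), and Tfb2m fell by 22.9%. Leaving out 1 library ended the call in 4 cases, with adjusted p = 0.0998 without wild-type cisplatin replicate 1, 0.0625 without replicate 3 of that group, 0.118 without FAN1KO cisplatin replicate 1 and 0.101 without replicate 2. Over all such fits the value stayed between -0.47 and -0.31. A fit on the 6 cisplatin libraries alone gave an adjusted p = 0.0975. The order of the 3 FAN1KO cisplatin kidneys in Tfb2m was also their order in the summed proximal tubule markers (2373, 2745 and 4691 TPM). The highest of them in both, replicate 3, was the library with Y-linked RNA.

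Tfam, which coats mitochondrial DNA, stood at 21.0, 22.2 and 20.5 TPM in FAN1KO and at 27.6, 24.1 and 26.9 TPM in wild-type kidneys under cisplatin. The groups did not overlap, but the FAN1KO values overlapped those of both saline groups (20.6 to 25.3 TPM), and the wild-type cisplatin mean was the highest of the 4. The log2 fold change was -0.29 (SE 0.10), short of the threshold at a limma adjusted p = 0.0563. Under the other settings tried that p ran from 0.0179 to 0.118, and 5 of 10 settings called Tfam lower.

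Nrf1, a factor for nuclear genes of the respiratory chain, had the only values that were higher in FAN1KO cisplatin kidneys in every library, at 10.2, 9.57 and 8.18 TPM against 5.85, 7.05 and 7.48 TPM in wild-type. Both saline groups lay between 4.56 and 7.12 TPM, below all FAN1KO cisplatin values. The log2 fold change was 0.41 (SE 0.17, limma adjusted p = 0.104), not past the threshold. It passed with a term for Y-linked RNA and without the 4 libraries that held it, the lowest adjusted p being 0.00444.

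Gabpa, the DNA-binding subunit of the GABP factor, stood at 12.7, 10.8 and 11.1 TPM in FAN1KO and at 15.1, 13.2 and 13.4 TPM in wild-type kidneys under cisplatin. The FAN1KO values were the lowest of the 4 groups, and the highest of them (12.67 TPM) was just under the lowest saline value (12.69 TPM). The log2 fold change was -0.25 (SE 0.12, limma adjusted p = 0.145). Twnk, the helicase that unwinds mitochondrial DNA, was at 17.4, 16.5 and 18.0 TPM against 19.0, 20.6 and 19.7 TPM, with a log2 fold change of -0.18 (limma adjusted p = 0.224). Here FAN1KO kidneys had the lower mean under saline as well, at 17.5 TPM against 20.1 TPM, with overlap.

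The remaining 5 genes overlapped between genotypes under cisplatin. Ppargc1a, the coactivator most often taken as the head of this programme, was at 17.1, 19.4 and 15.97 TPM in FAN1KO and at 12.7, 17.3 and 17.6 TPM in wild-type kidneys. Its log2 fold change was 0.14 (SE 0.28, limma adjusted p = 0.742), and its SE, the largest of the 10, was larger than that difference. Ppargc1b had 0.03 (SE 0.27) and Esrra -0.12 (SE 0.11). Polrmt, the polymerase itself, averaged 22.5 TPM in FAN1KO against 22.6 TPM for wild-type (log2 fold change 0.00, SE 0.09), a value that the scaling described next moved to -0.28, and Polg gave -0.05 (SE 0.13).

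TPM values share a fixed total, so a large change in a few abundant transcripts can move all other genes. The median of all genes was 0.24 here and 0.16 with mitochondrially encoded genes left out, and its source was not tested. Scaling each library by its median ratio to the others brings that median near 0 by design, so it cannot tell whether most genes changed. With this scaling the median became -0.01, and the share of higher genes among those called went from 81.8% to 54.6%. On that scale 5 members were called lower and 0 higher, where 1155 of 14972 genes were lower and 1388 higher. Tfam had a log2 fold change of -0.57 (limma adjusted p = 0.0211), Tfb2m -0.65 (0.0404), Gabpa -0.52 (0.0242), Twnk -0.45 (0.0216) and Polg -0.33 (0.0262). Nrf1 shrank to 0.15 (limma adjusted p = 0.277), and Ppargc1a and Ppargc1b turned to -0.13 and -0.21. Polrmt moved to -0.28 (limma adjusted p = 0.213), with a FAN1KO mean of 18.6 against 22.8 for wild-type, and Esrra to -0.40 (0.133). The libraries of the 2 genotypes then did not overlap for Polrmt, nor for Tfb2m, Tfam, Gabpa, Twnk, Polg and Nrf1. The share of all genes without overlap was not taken on that scale. This scaling lowered the fold changes of this comparison, so the lower values of Tfb2m, Tfam, Gabpa and Twnk could not change direction. The higher value of Nrf1 could have, and stayed higher though smaller.

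**Figure D2:**
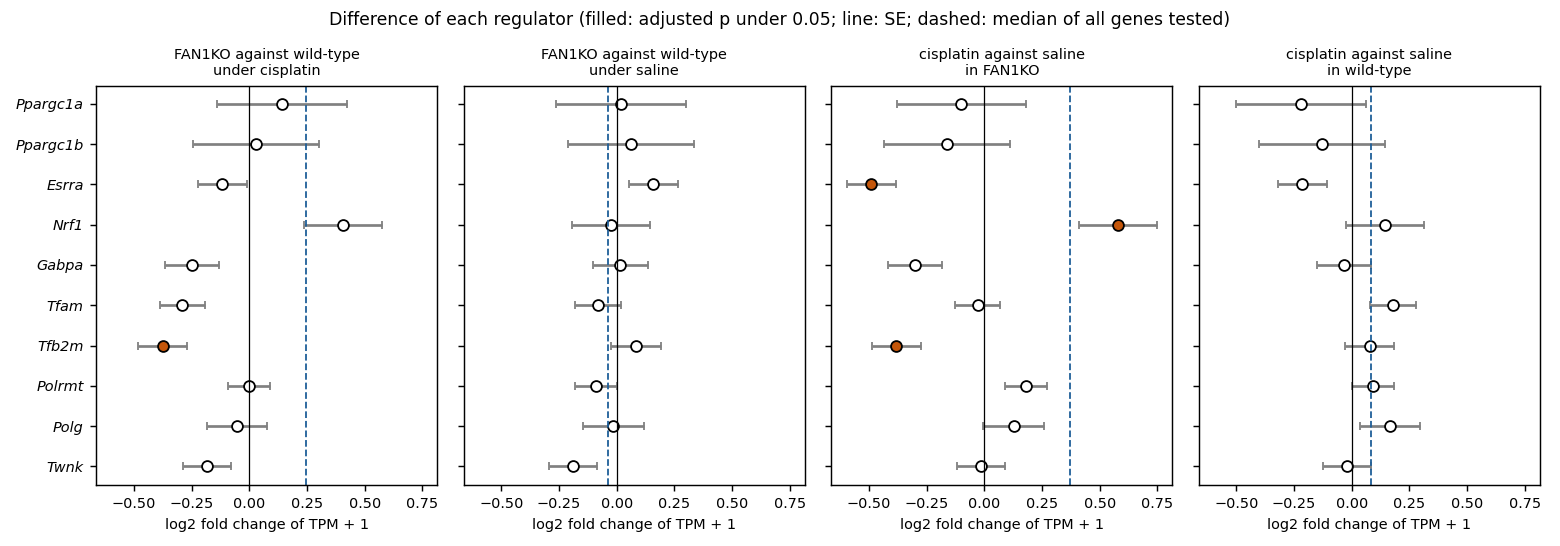
Log2 fold change of TPM + 1 (horizontal axis) of the 10 genes in 4 comparisons, with the standard error as a line. Filled points had an adjusted p under 0.05 (Tfb2m in the first panel, Esrra, Nrf1 and Tfb2m in the third), and the dashed line is the median of all 14972 genes, at 0.24, -0.04, 0.37 and 0.08 from left to right.

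Cisplatin against saline within FAN1KO mice gave the most calls among the members, 3 of 10. Esrra and Tfb2m were called lower and Nrf1 higher, 2 and 1 of 10, where 4.9% of all genes were called lower and 34.9% higher. This comparison and the one above share the FAN1KO cisplatin kidneys, so their values are not independent. The values of the 2 treatments did not overlap for 5 members (Esrra, Gabpa and Tfb2m lower, Nrf1 and Polrmt higher), against 54.9% of all genes.

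Esrra, the nuclear receptor through which PGC-1α acts on oxidative genes, was at 116, 122 and 129 TPM in FAN1KO kidneys after cisplatin and at 165, 168 and 185 TPM after saline. The 3 treated kidneys all lay below the 3 saline kidneys, with a log2 fold change of -0.49 (SE 0.11, limma adjusted p = 0.0055), and Esrra fell by 28.8%. It was called in all 10 other settings and whichever library was left out, with adjusted p between 0.00386 and 0.0265 in the latter. Wild-type kidneys had 123, 125 and 153 TPM after cisplatin and 141, 159 and 164 TPM after saline, an overlapping difference of -0.21 (SE 0.11, limma adjusted p = 1). The difference between these 2 responses was -0.27 (SE 0.15, limma adjusted p = 0.286), so a stronger response of Esrra in FAN1KO was not shown.

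Nrf1 went from 4.56, 7.12 and 6.26 TPM to 10.2, 9.57 and 8.18 TPM in FAN1KO kidneys, a log2 fold change of 0.58 (SE 0.17, limma adjusted p = 0.0207). Every treated kidney exceeded every saline kidney. On the scaled values the difference was 0.19 (limma adjusted p = 0.126), so the call rested on the scale. Tfb2m gave -0.38 (SE 0.11, limma adjusted p = 0.0174), almost the value of the genotype comparison, and -0.79 when scaled (0.0113). Leaving out FAN1KO saline replicate 1, FAN1KO cisplatin replicate 1 or FAN1KO cisplatin replicate 2 ended both calls, with adjusted p of 0.0773, 0.0802 and 0.0646 for Nrf1 and 0.059, 0.0728 and 0.063 for Tfb2m.

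Gabpa narrowly missed the threshold, at -0.30 (SE 0.12, limma adjusted p = 0.0638), and reached it in 5 of 10 other settings and without wild-type saline replicate 3 (0.048). Tfam, at -0.03 (SE 0.10), and Twnk, at -0.01 (SE 0.10), gave values near 0, while Polrmt had 0.18 (SE 0.09, limma adjusted p = 0.137) and Polg 0.13 (SE 0.13). Ppargc1a and Ppargc1b gave -0.10 (SE 0.28) and -0.16 (SE 0.27). The median of all genes was 0.37 here, and 9 of 10 members lay below it. After scaling, 6 members were called lower (Esrra -0.92, Tfb2m -0.79, Gabpa -0.71, Tfam -0.45, Twnk -0.43 and Polg -0.29) and 0 higher, and Polrmt turned to -0.24. Of 14972 genes, 2047 were then lower and 2333 higher, and higher genes made up 53.3% of all calls in place of 87.7%.

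Saline-treated FAN1KO and wild-type kidneys did not differ past the threshold in any member, and 0 of 10 had an unadjusted p under 0.05. Calls were rare among all genes, at 0.427% of genes lower and 0.341% higher. Esrra was the single member without overlap, at 165, 168 and 185 TPM in FAN1KO and 141, 159 and 164 TPM in wild-type kidneys (log2 fold change 0.16, SE 0.11, limma adjusted p = 0.869), against 12.5% of all genes without overlap. The nearest values were 164.7 and 163.9 TPM, and on the scaled values the groups overlapped. Twnk had the lowest value, -0.19 (SE 0.10). The other 8 lay between -0.09 and 0.08.

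Cisplatin against saline in wild-type mice likewise gave 0 members called in either direction and 0 with an unadjusted p under 0.05. Of all genes, 0% were called lower and 0.0601% higher by limma, with 67 lower and 382 higher at an unadjusted p under 0.05. Polrmt alone did not overlap, at 22.0, 24.1 and 21.6 TPM against 21.6, 20.2 and 21.5 TPM, a difference of 0.09 (SE 0.09), where 6.28% of genes did not overlap. Its nearest values were 21.65 and 21.57 TPM, and on the scaled values the treatments overlapped. Tfam was at 27.6, 24.1 and 26.9 TPM after cisplatin and 25.3, 22.4 and 21.4 TPM after saline, overlapping, with a log2 fold change of 0.18 (SE 0.10). The lowest values were those of Ppargc1a, -0.22 (SE 0.28), and Esrra, -0.21.

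Whether the response to cisplatin differed between genotypes was tested as an interaction. None of the 10 was called, where 1.02% of genes were called lower and 5.22% higher, and 1 member had an unadjusted p under 0.05. That was Tfb2m, whose log2 response in FAN1KO minus that in wild-type was -0.46 (SE 0.15, limma adjusted p = 0.0936). Without FAN1KO cisplatin replicate 3 the adjusted p was 0.0451, and with a term for Y-linked RNA Tfb2m was called lower and Nrf1 higher. Nrf1 otherwise gave 0.43 (SE 0.24), Gabpa -0.27 (SE 0.17) and Tfam -0.21 (SE 0.14).

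In the order of group means in TPM, most neighbours overlapped. Tfb2m ran from 20.4 TPM (SD 1.01, n = 3) in FAN1KO saline and 20.4 TPM (SD 1.12) in wild-type cisplatin through 19.2 TPM (SD 0.611) in wild-type saline to 15.5 TPM (SD 1.93) in FAN1KO cisplatin kidneys, and only the last step was free of overlap. Nrf1 had a gap only at the top, between FAN1KO cisplatin at 9.33 TPM (SD 1.05) and wild-type cisplatin at 6.79 TPM (SD 0.847). Gabpa had its gap at the bottom, between wild-type cisplatin at 13.9 TPM (SD 1.03) and FAN1KO cisplatin at 11.5 TPM (SD 0.984). Esrra ran from 172 TPM (SD 10.7) in FAN1KO saline to 155 TPM (SD 12.3) in wild-type saline, a step free of overlap, then to 134 TPM (SD 16.7) in wild-type cisplatin and 123 TPM (SD 6.56) in FAN1KO cisplatin, with overlap at both later steps. Ppargc1a, Ppargc1b, Tfam, Polrmt and Polg had overlap at every step. Twnk had a gap in the middle, between wild-type cisplatin at 19.8 TPM (SD 0.826) and FAN1KO saline at 17.5 TPM (SD 1.66).

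The product of the machinery was read from the share of all TPM that came from the 15 genes of the mitochondrial genome in the table. It was 10.2%, 13.7% and 16.7% in the FAN1KO cisplatin kidneys and 21.2%, 18.6% and 18.3% in the wild-type cisplatin kidneys. Wild-type saline kidneys held 22.7%, 21.7% and 19.0%, and FAN1KO saline kidneys 20.1%, 21.7% and 22.2%. The means were 13.5% ± 3.22 (SD, n = 3) in FAN1KO cisplatin, 19.4% ± 1.57 in wild-type cisplatin, 21.1% ± 1.92 in wild-type saline and 21.3% ± 1.09 in FAN1KO saline. All 3 FAN1KO cisplatin values lay below the other 9, and the difference of -5.84 percentage points from wild-type cisplatin had an exact two-sided permutation p = 0.1, the smallest that 3 against 3 allows (0.2 adjusted over the 4 comparisons).

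Gene by gene, 8 of 13 mitochondrially encoded mRNAs were called lower and 0 higher between cisplatin and saline in FAN1KO kidneys, with a median log2 fold change of -0.68. Of all genes 4.9% were lower and 34.9% higher there. Between the genotypes under cisplatin 1 of 13 was called lower, ND4L, a subunit of complex I, at -0.72 (limma adjusted p = 0.0324), and the median was -0.55. That count is near the 4.37% of all genes called lower. Across the 3 FAN1KO cisplatin kidneys the share, the Tfb2m level and the proximal tubule markers stood in the same order, which 3 libraries cannot test. Replicate 3, highest in each, held Y-linked RNA. In both saline groups the library highest in proximal tubule markers had the lowest share (7986 TPM and 19.0% in wild-type, 8936 TPM and 20.1% in FAN1KO). Wild-type cisplatin replicate 1 was the highest of its group in both (8302 TPM and 21.2%). Polrmt, the enzyme that makes the mitochondrially encoded RNAs, had FAN1KO cisplatin values of 22.0, 24.2 and 21.5 TPM, none below the saline range of either genotype. On the scaled values its mean was 18.6 in FAN1KO cisplatin kidneys against 22.9 in wild-type saline, 22.2 in FAN1KO saline and 22.8 in wild-type cisplatin kidneys, so the level relative to the other groups depended on the scale.

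**Figure D3:**
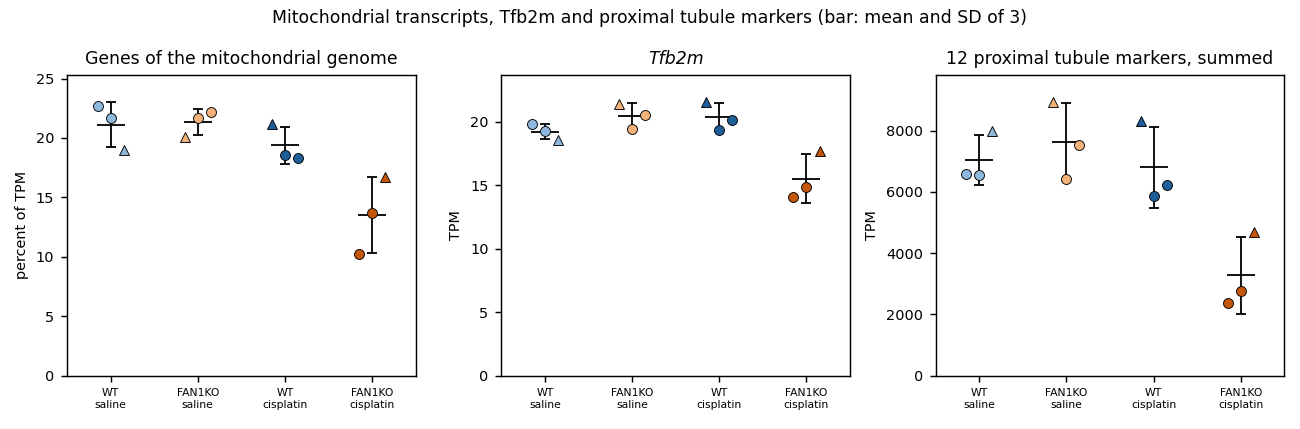
Percent of TPM from the 15 genes of the mitochondrial genome (left), Tfb2m in TPM (middle) and the summed TPM of 12 proximal tubule markers (right) in each kidney by group, with the mean and SD of 3. In all 3 panels the FAN1KO cisplatin kidneys lay below the other 9, and replicate 1 was the lowest of them (10.2%, 14.04 TPM and 2373 TPM).

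Other genes of the pathway, listed by function, were called in both directions between genotypes under cisplatin, where 4.37% of all genes were lower and 19.6% higher. Of 27 coactivators, receptors and upstream kinases, 2 were called lower and 4 higher, near those shares. On the scaled values 4 were lower and 2 higher, where 1155 of 14972 genes were lower and 1388 higher. Ppard, a fatty acid receptor, gave -1.13 (limma adjusted p = 0.0253), with 17.7 TPM (SD 4.39) in FAN1KO against 41.7 TPM (SD 17.8) in wild-type kidneys. Prkab1, a regulatory subunit of the energy sensor AMPK, rose by 1.09 on the log2 scale (0.00274), with 89.1 TPM (SD 16.6) against 41.2 TPM (SD 5.12). The others called were Sirt3, a mitochondrial deacetylase, lower, and Yy1, Prkag1 and Nfe2l2 higher.

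None of 8 further genes of mitochondrial transcription was called, among them Tfb1m and Tefm, and 1 was lower when scaled. Of 16 genes of mitochondrial DNA replication and nucleotide supply 2 were lower and 1 higher (1 and 1 when scaled). Mgme1, an exonuclease that trims replicating mitochondrial DNA, gave -0.63 (limma adjusted p = 0.0316), at 7.26 TPM (SD 1.43) against 11.7 TPM (SD 1.16). Fen1, a flap nuclease of nuclear replication as well, gave 1.00 (0.00201), at 14.2 TPM (SD 1.65) against 6.61 TPM (SD 0.81).

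Of 18 genes of mitochondrial RNA processing and stability 1 was lower and 0 higher, and 6 lower and 0 higher on the scaled values, where the median of the list was -0.36. The 1 called on both was Lrpprc, which stabilises mitochondrial mRNAs, at 29.9 TPM (SD 1.31) in FAN1KO against 40.0 TPM (SD 5.56) in wild-type kidneys, with a log2 fold change of -0.40 (limma adjusted p = 0.0204). Of 12 genes of mitochondrial protein import 1 was lower and 2 higher (1 and 0 when scaled), led by Hspd1, the matrix chaperonin, at -0.87 (0.00977), and Tomm40, the pore of the outer membrane, at 0.48 (0.0129). Of 14 genes of fusion, fission and mitophagy 0 were lower and 1 higher, the fission adaptor Fis1 at 0.43 (0.0209), whereas on the scaled values 4 were lower and 0 higher. On the scaled values Tomm40 and Fis1 were no longer called, at 0.19 (limma adjusted p = 0.371) and 0.14 (0.521), whereas Ppard, Prkab1, Mgme1, Fen1, Lrpprc and Hspd1 remained called in the same direction. For the lower ones, Ppard, Mgme1, Lrpprc and Hspd1, the scaling could not change the direction.

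Ppargc1a varied more within groups than between them. In wild-type saline kidneys it was at 22.4, 25.1 and 11.1 TPM, and in FAN1KO saline kidneys at 14.3, 24.4 and 18.8 TPM. In each of 4 groups its lowest value was in the library with Y-linked RNA (wild-type saline replicate 3, FAN1KO saline replicate 1, wild-type cisplatin replicate 1 and FAN1KO cisplatin replicate 3). Set against the other libraries of their groups, a comparison chosen after the data were seen, the 4 libraries with Y-linked RNA were lower in 4 members, with log2 fold changes of -0.55 in Ppargc1a (SE 0.12, limma adjusted p = 0.00391), -0.47 in Ppargc1b (0.0135), -0.30 in Nrf1 (0.00447) and -0.21 in Polg (0.0146). These 4 of 10 members lower, with 0 higher, stand against 50% of all genes lower and 6.31% higher in that comparison, whose median was -0.25. On the scaled values 0 members were lower and 6 higher (Esrra, Gabpa, Tfam, Tfb2m, Polrmt and Twnk), and Ppargc1a gave -0.26 (limma adjusted p = 0.101). Of 14972 genes, 3206 were lower and 3446 higher on that scale. The labels do not give the sex of the mice.

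The genes whose pattern was most like that of Ppargc1a were found by the root mean square difference of standardised log2(TPM + 1) over the 12 libraries, a description that the depth and composition of the libraries also enter. The closest of 14972 was Kcnj1, the ROMK potassium channel of the thick ascending limb and collecting duct, at a difference of 0.257 SD where the median gene stood at 1.21 SD. Syt17, Pde4d, 5930403L14Rik and Tenm4 followed, at 0.301 to 0.321 SD. On the scaled values Kcnj1 ranked 1, Pde4d 2 and 5930403L14Rik 5, while Syt17 ranked 24 and Tenm4 ranked 170.

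Among the members Ppargc1b came closest to Ppargc1a, at 0.426 SD and rank 32, and rank 25 when scaled. The other 8 stood between 1.08 and 1.55 SD, around the median of all genes. Kcnj1 was picked for its likeness to Ppargc1a over the same libraries, so sharing the lowest libraries of Ppargc1a is not a separate observation. It was lowest in the library with Y-linked RNA in each of 4 groups (78.9, 106, 82.1 and 109 TPM against 125 to 216 TPM in the other 8). The 7 markers of the thick ascending limb and distal tubule, summed, were also lowest in these libraries in each of 4 groups, at 2112, 2035, 1702 and 1802 TPM, where the others held 2207 to 4297 TPM. The proximal tubule markers were highest in the same libraries in each of 4 groups. Markers of other cells were lower there too, with 6 of 7 thick ascending limb and distal tubule markers called (median log2 fold change -0.75), 5 of 5 endothelial (-1.56), 5 of 5 podocyte (-1.27), 6 of 6 fibroblast (-1.21), 5 of 8 immune cell (-0.67) and 3 of 6 collecting duct markers (-0.58). On the scaled values these counts were 3, 5, 5, 4, 5 and 1, so the shift was not particular to the thick ascending limb. Of all genes 50% were lower in that comparison, and 3206 of 14972 when scaled. The part of any of these marker differences in the Ppargc1a values was not tested.

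**Figure D4:**
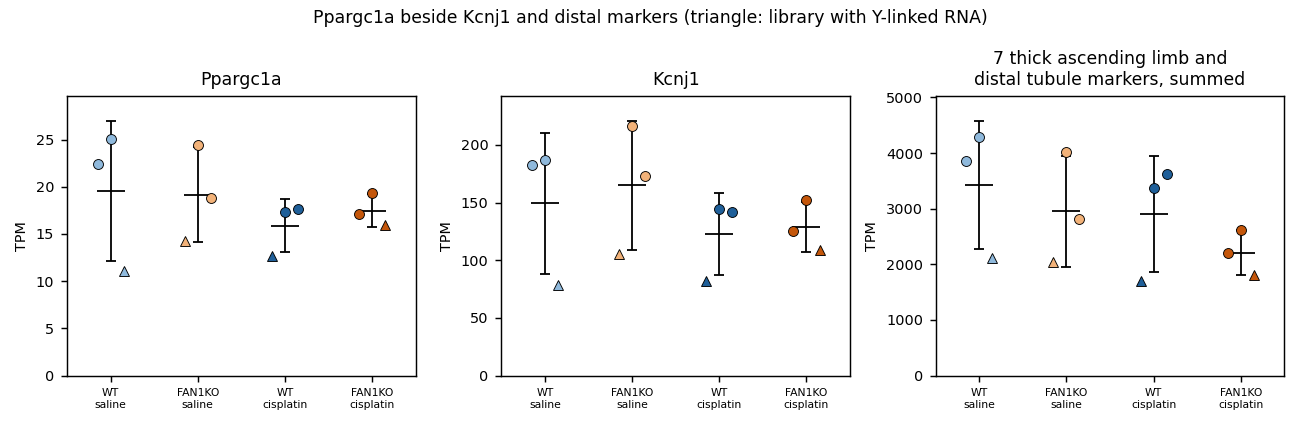
Ppargc1a (left), Kcnj1 (middle) and the sum of 7 thick ascending limb and distal tubule markers (right), in TPM, for each kidney by group, with the mean and SD of 3. The triangle, the library with Y-linked RNA, is the lowest of its group in all 3 panels and all 4 groups (for Ppargc1a 11.1, 14.3, 12.7 and 15.97 TPM). Kcnj1 was picked for its likeness to Ppargc1a over these libraries.

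For 5 members other genes lie over part of the same stretch of the genome in RefSeq, namely Trmt112 and Mir6990 at Esrra, Atp5j at Gabpa, Fanci and a tRNA gene at Polg, Mrpl43 at Twnk, and Gm46627, Mir378a and Gm52354 at Ppargc1b. Whether the counting used strand is not given in the sources used here, so reads of these neighbours cannot be told apart from those of the members. Tfb2m, Tfam, Nrf1, Polrmt and Ppargc1a had no such neighbour.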

How the data were processed

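RNA of flash-frozen kidneys from 12 mice was sequenced (2 × 150 bases) and the authors deposited 1 table of TPM values, reads per gene length scaled so that each library sums to 1000000, by NCBI Gene number. The labels name build mm10 and limma. The aligner, the counter and the annotation are not given in the sources used here. Gene symbols came from RefSeq (GRCm38.p6), and 1904 of 27179 numbers had none.

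Groups came from the sample titles. Genes with at least 1 TPM in at least 3 of 12 libraries (14972) were tested on log2(TPM + 1) with limma 3.58.1 in R 4.3.3 (moderated, with a mean-variance trend), with 4 group means over all 12 libraries and Benjamini-Hochberg adjustment at 0.05. Fold changes on this scale understate those of low genes. Single shares were compared by exact permutation. TPM values do not carry library depth as such, but the steps between values gave whole reads for all 178705 values above 0, and these served for depth and for 1 alternative (voom). The test was tried on simulated data with larger changes than those of the members. It therefore does not show how well changes of their size are found. Same-numbered libraries came from different mice, and the correlation of their deviations averaged -0.24 to -0.14 over 4 comparisons, so the numbers were not taken as pairs. Median-ratio scaling, other pseudocounts and filters, a replicate block, fits on 6 libraries, leaving out mitochondrial genes or single libraries, and a term for Y-linked RNA were tried. The 2 alternatives on Y-linked RNA (the 4 libraries left out, and their comparison with the others) were added after the data were seen.

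The genes named are the 10 members, the genes with the lowest and highest fold change past the threshold and without overlap in each pathway list under cisplatin, and the 5 genes most like Ppargc1a. Genes given only as the rest of a count were named after their values were seen. The members and lists were chosen with earlier results of these data known. The p-values measure the spread between these mice.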

Additional observations from a re-analysis of the deposited data

How the results depend on the processing

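With 3 mice a group, exact tests could not go below p = 0.1, and the least read member rested on 462 reads in its lowest library. The lower Esrra after cisplatin in FAN1KO was called under each of 10 alternatives and with any 1 library left out, and the lower Tfb2m between genotypes under 8 of 10. Unless a cause is named, the cause was not tested.

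Under median-ratio scaling 5 members were lower between genotypes under cisplatin, and 1155 genes were lower and 1388 higher. Under saline 80 genes were higher. Cisplatin against saline in FAN1KO gave 6 members lower and 0 higher, with 2047 genes lower and 2333 higher, and in wild-type 1 lower and 15 higher. The interaction gave 374 genes higher. Uncalled values that changed sign were Ppargc1a -0.13 and Ppargc1b -0.21 between genotypes under cisplatin, Nrf1 0.016 and Polg 0.033 under saline, Polrmt -0.24 and (now called) Polg -0.29 after cisplatin in FAN1KO, Tfb2m -0.015 and Polrmt -0.0012 in wild-type, and Ppargc1a -0.20, Polrmt -0.24 and Twnk -0.31 in the interaction.

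With mitochondrially encoded genes left out before rescaling, 2 members were lower between genotypes under cisplatin and 1829 genes higher. Nrf1 was no longer called after cisplatin in FAN1KO (0 higher), 14 genes were higher in wild-type and 446 in the interaction. Ppargc1b changed sign between genotypes (-0.059), Polg after cisplatin in FAN1KO (-0.00062), and Polrmt (-0.010) and Twnk (-0.092) in the interaction. The filter removed, 2 members were lower between genotypes under cisplatin and 36 genes lower under saline. With voom on recovered reads 2 members were lower under cisplatin, and Twnk turned to -0.012 in the interaction. The 13 mitochondrial mRNAs alone gave a genotype difference in share of -0.2475 percentage points under saline.

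With only the 6 libraries compared, 0 members were lower between genotypes under cisplatin (1721 genes higher). The SE of Tfb2m was 0.133 in that fit, which has fewer degrees of freedom, and 0.107 in the main fit. The other counts were 16 genes lower and 11 higher under saline, 1 member lower (Esrra) and 0 higher after cisplatin in FAN1KO, and 0 genes higher in wild-type. With the replicate block 0 members were lower between genotypes under cisplatin (Tfb2m limma adjusted p = 0.052), 29 genes lower and 32 higher under saline, 0 higher after cisplatin in wild-type, and 73 lower and 351 higher in the interaction. The replicate numbers do not pair the mice.

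A term for Y-linked RNA gave 2 members lower and 1 higher between genotypes under cisplatin (1288 genes lower and 6035 higher), 248 genes lower and 173 higher under saline, 1222 lower and 7919 higher after cisplatin in FAN1KO, 1 lower and 57 higher in wild-type, and in the interaction 1 member lower and 1 higher (646 genes lower and 4088 higher). Without the 4 libraries with Y-linked RNA, a choice made after the data were seen, 1 member (Nrf1) was higher between genotypes under cisplatin and 1162 genes lower. The other counts were 178 lower and 117 higher under saline, 1256 lower after cisplatin in FAN1KO, 3 lower and 60 higher in wild-type, and 434 lower and 2004 higher in the interaction. Signs changed for Ppargc1b (-0.14) and Polrmt (0.014) between genotypes under cisplatin, for Ppargc1a (-0.14), Ppargc1b (-0.065), Nrf1 (0.055), Gabpa (-0.0093) and Polg (0.047) under saline, and for Twnk (-0.068) in the interaction.

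Leaving out 1 library at a time gave 0 to 1 members lower between genotypes under cisplatin (370 to 694 genes lower and 1169 to 3144 higher), 19 to 72 genes lower and 22 to 57 higher under saline, 1 to 3 members lower and 0 to 1 higher after cisplatin in FAN1KO (482 to 786 genes lower and 3140 to 5607 higher), 0 to 41 genes higher in wild-type, and 0 to 1 members lower in the interaction (51 to 216 genes lower and 217 to 981 higher). Uncalled values that crossed 0 were Ppargc1a (-0.0039 to 0.22), Ppargc1b (-0.15 to 0.12) and Polrmt (-0.051 to 0.044) between genotypes under cisplatin. Under saline they were Ppargc1a (-0.32 to 0.23), Ppargc1b (-0.22 to 0.34), Nrf1 (-0.14 to 0.13), Gabpa (-0.062 to 0.069), Polg (-0.099 to 0.11) and the mitochondrial share (-0.861 to 0.998 percentage points). After cisplatin they were Ppargc1a (-0.28 to 0.083) and Twnk (-0.088 to 0.039) in FAN1KO and Ppargc1b (-0.42 to 0.15), Gabpa (-0.11 to 0.0094) and Twnk (-0.074 to 0.028) in wild-type. In the interaction they were Ppargc1a (-0.090 to 0.47), Ppargc1b (-0.31 to 0.25), Polg (-0.16 to 0.046) and Twnk (-0.067 to 0.060).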
